A study of Mus musculus with 18 samples.

Results

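The genes described here encode the nuclear subunits of the mitochondrial respiratory chain and of ATP synthase, and their transcripts were followed on 18 oligonucleotide arrays from 2 regions of the mouse nervous system. All probe sets were taken whose only gene symbol begins with Nduf, Uqcr or Atp5, or is Sdha to Sdhd, Cyc1 or a Cox4 to Cox8 gene, which gave 157 of 22690 probe sets and 85 genes. By complex they were 68 probe sets of 34 genes in complex I, 6 of 5 genes that assemble complex I (Ndufaf), 7 of 4 genes in complex II, 16 of 9 genes in complex III, 32 of 16 genes in complex IV and 28 of 17 genes in complex V. Complexes were assigned by symbol, so that Ndufa4, whose protein has since been placed in complex IV, counts under complex I, and Cox7a2l, a factor of chain supercomplexes, under complex IV.

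The oculomotor nucleus (OMN), a midbrain nucleus of motor neurons that move the eyes, was compared with the cervical spinal cord in mice of a model of amyotrophic lateral sclerosis (ALS) and in controls. The groups were mutant OMN of 10 weeks, mutant OMN of 6 weeks, control OMN of 10 weeks, mutant spinal cord of 10 weeks, mutant spinal cord of 6 weeks and control spinal cord of 10 weeks, each with 3 arrays. The labels name no transgene, promoter, strain or sex, and do not say whether animals were pooled or whether arrays stand for separate animals, so the spread behind each p-value is that between arrays and may be technical. No controls of 6 weeks were among the groups, and age was compared within mutants alone.

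The signals of control spinal cord replicate 1 correlated with those of the other arrays at only 0.0104 to 0.0143 across probe sets, against 0.957 to 0.985 among the remaining 17, and it does not enter the results. Control spinal cord therefore has n = 2, and every other group n = 3. The OMN label was checked against marker genes. Phox2a, a defining transcription factor of these motor neurons, lay between 33.4 and 69.7 on all 9 OMN arrays, near background. It was higher in OMN than in cord in mutants of 6 weeks (58.5 to 69.7 against 38.5 to 44.6). The same held in controls (48.1 to 62.6 against 41.3 to 46.1), while in mutants of 10 weeks it overlapped (33.4 to 61.3 against 57.7 to 84.6). Rgs4, also taken as a marker of the nucleus, had 904 to 1834 in OMN samples and 829 to 1464 in spinal cord samples. In controls its ranges were 1261 to 1469 in OMN and 829 to 1097 in cord. The ranges overlapped in mutants of 6 weeks (1256.5 to 1834 against 1224 to 1464). They also overlapped in mutants of 10 weeks (904 to 1064.5 against 985.5 to 1148). Slc18a3, the vesicular acetylcholine transporter, had 204 to 389 in OMN samples and 977 to 1263 in spinal cord samples. Th and Slc6a3, markers of the midbrain dopamine neurons that lie beside the nucleus, had 898 to 2058 in OMN samples, against 102 to 222 in spinal cord samples. Ddc, Nr4a2, Foxa2 and En1, markers of the same neurons, were also higher in every OMN sample than in any spinal cord sample. Aldh1a1, a further marker, overlapped (2059 to 3154 against 2323 to 3167), as did Pitx3. Of 6 tested motor neuron genes 5 were lower in OMN than in spinal cord in each condition. Hoxc8, a gene of cord position, had 1315 or more in every spinal cord sample and 47.8 or less in every OMN sample. The arrays are of bulk tissue, so fewer cells of a type and less RNA per cell cannot be told apart.

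In the inner mitochondrial membrane, complex I takes electrons from NADH and complex II takes them from succinate, and both pass them to ubiquinone. Complex III hands them on to cytochrome c, complex IV to oxygen, and complexes I, III and IV pump protons whose return through complex V, the ATP synthase, drives ATP formation. Neurons obtain most of their ATP this way, and damaged mitochondria have long been described in motor neurons of ALS model mice. A small set of core subunits is encoded by mitochondrial DNA, and the subunits described here are encoded in the nucleus.

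Signals are the linear values deposited by the authors, and levels of different probe sets are not set against each other, since each probe set has its own hybridisation strength. The member probe sets lay at the bright end of the array: 76.4% had a mean signal above 1000, compared with 15.6% of all probe sets. In complex I the mean signals ran from 19.9 for a probe set of Ndufb9 to 6714 for Ndufa4, in complex II from 241 for a probe set of Sdhd to 5154 for Sdha, and in complex III from 92.4 for a probe set of Uqcrq to 13002 for Uqcrb. In complex IV they ran from 22.1 for a probe set of Cox7c to 10558 for Cox6a1, and in complex V from 47.2 for a probe set of Atp5g2 to 9987 for Atp5g3. Each of these dim probe sets had a brighter partner above 1000 for the same gene, except in Cox7c, whose other probe set averaged 96.7. A filter on low signal kept 141 probe sets of 81 genes for testing and left out 16. The 4 genes with no tested probe set were Cox6b2, Cox7a1, Cox7c and Cox8b.

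Complex IV has subunits that come as tissue isoforms, each measured by its own probe sets. Cox6a1, the isoform of most tissues, had signals of 10719 to 10958 in mutant OMN of 10 weeks and 8500 to 8877 in control OMN. Values of the other groups are not given here, and this difference did not pass the test described below. Cox6a2, the isoform of heart and skeletal muscle, had 110 to 260 on all 17 arrays. Cox7a1 and Cox8b, also isoforms of heart and muscle, stayed between 63.5 and 154 and between 15.4 and 118, and both were below the filter, while Cox7a2, their partner gene of other tissues, had 8067 to 11648 and Cox8a 4484 to 6710. Cox6b2, an isoform of testis, had 51.1 to 149, and Cox6b1 had 5508 to 7584. Cox4i1, the isoform of most tissues, had 6895 to 9740, and Cox4i2, known from lung, had 122 to 240. In complex V, the membrane-embedded c subunit is made from 3 genes: Atp5g1 had 2181 to 3577, the brighter probe set of Atp5g2 had 2229 to 2692 and Atp5g3 had 7984 to 12287. These ranges are from probe sets of their own strength and give no order between genes.

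RefSeq promoters of build GRCm38.p6 (250 bases before to 50 after the start) were matched for 70 of the 85 genes, with 75 promoters. Shown are those of Ndufa5, Ndufa9 and Ndufs8, which were called between regions within a condition, and of Uqcrfs1 and Atp5g3, which were followed in every comparison. Capitals mark matches, on either strand, to the site of NRF1, a regulator of genes for mitochondrial proteins (GCGC, any base, then TGCGC), to the ETS family site (CCGGAAG) or to the YY1 site (AAGATGG). No promoter shown holds more than 1 of these motifs, so none overlap. All 5 promoters lie on the minus strand: Atp5g3 at chr2:73911277-73911576, Ndufa5 at chr6:24527477-24527776, Ndufa9 at chr6:126849095-126849394, Ndufs8 at chr19:3912725-3913024 and Uqcrfs1 at chr13:30545267-30545566.
Atp5g3: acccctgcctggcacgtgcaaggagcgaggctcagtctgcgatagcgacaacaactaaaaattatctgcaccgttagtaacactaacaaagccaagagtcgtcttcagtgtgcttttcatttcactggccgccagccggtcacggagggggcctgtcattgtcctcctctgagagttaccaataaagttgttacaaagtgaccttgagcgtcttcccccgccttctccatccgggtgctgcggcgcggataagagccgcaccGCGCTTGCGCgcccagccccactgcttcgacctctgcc
Ndufa5: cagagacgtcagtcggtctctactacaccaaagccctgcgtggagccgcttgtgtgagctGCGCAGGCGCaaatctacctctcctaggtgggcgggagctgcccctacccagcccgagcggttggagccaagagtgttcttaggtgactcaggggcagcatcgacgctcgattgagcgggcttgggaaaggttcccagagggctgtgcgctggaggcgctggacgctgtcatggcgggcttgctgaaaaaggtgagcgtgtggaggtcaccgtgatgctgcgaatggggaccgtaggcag
Ndufa9: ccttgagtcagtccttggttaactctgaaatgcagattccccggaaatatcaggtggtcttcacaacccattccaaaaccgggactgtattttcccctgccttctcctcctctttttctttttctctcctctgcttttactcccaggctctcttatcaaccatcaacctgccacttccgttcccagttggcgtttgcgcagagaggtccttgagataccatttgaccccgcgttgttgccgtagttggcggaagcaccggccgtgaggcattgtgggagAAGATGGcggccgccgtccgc
Ndufs8: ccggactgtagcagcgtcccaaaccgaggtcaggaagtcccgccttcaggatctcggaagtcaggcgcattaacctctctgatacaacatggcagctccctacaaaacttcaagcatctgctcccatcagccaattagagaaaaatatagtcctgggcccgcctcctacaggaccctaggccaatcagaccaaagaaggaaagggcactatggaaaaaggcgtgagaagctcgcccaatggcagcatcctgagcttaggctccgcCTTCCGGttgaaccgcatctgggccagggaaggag
Uqcrfs1: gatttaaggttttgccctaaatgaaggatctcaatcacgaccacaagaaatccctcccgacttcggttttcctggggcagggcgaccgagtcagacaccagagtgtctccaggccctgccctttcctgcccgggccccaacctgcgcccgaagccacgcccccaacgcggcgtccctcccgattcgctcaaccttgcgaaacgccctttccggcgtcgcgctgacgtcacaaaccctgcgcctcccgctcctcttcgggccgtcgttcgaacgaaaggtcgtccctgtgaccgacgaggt
The NRF1 letters stand in the Atp5g3 and Ndufa5 promoters, the ETS letters in that of Ndufs8 and the YY1 letters in that of Ndufa9, and the Uqcrfs1 window holds none of the 3. Over all matched genes, 22.7% of the 75 promoters held the NRF1 letters, against 4.60% of 32851 promoters in the table. The ETS letters stood in 24.0% of them against 8.86%, and the YY1 letters in 13.3% against 6.34%. CCAAT stood in 38.7% against 37.4%, TATAAA in 10.7% against 13.6%, and GGGCGG in 42.7% against 35.7%. The median GC content was 58.7% in the matched promoters and 52.7% in all of them. A match is a description of letters and shows no binding.

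Between regions in mutants of 6 weeks, 13 of the 141 probe sets were higher in OMN than in spinal cord and 1 was lower, with limma's adjusted p below 0.05 after adjustment over 13575 probe sets, which is what "called" means below. That is 9.93% of the members, against 23.9% of all probe sets tested, of which 12.2% were higher and 11.7% lower. Complex V gave 5 of the higher calls (of 25 tested probe sets), complex IV 4 (of 25), complex I 2 (of 65), and complexes II and III 1 each (of 7 and 13). The median log2 fold change was 0.05 over the members and 0.03 over all probe sets. With 1 array left out the member median ran from -0.016, without mutant OMN replicate 3, to 0.12, without mutant OMN replicate 1. By complex it was -0.02 in complex I, 0.09 in complex II, -0.02 in complex III, 0.16 in complex IV and 0.05 in complex V. In quantile-normalized values the medians of complexes IV and V were 0.01 and 0.00. The arrays of the regions did not overlap for 23 members (16.3%, against 37.4% of all probe sets), 20 of them higher and 3 lower in OMN. Over all probe sets this split by direction was not counted, here or in the comparisons below. No member reached 2-fold, and the 95% interval of 140 of 141 members lay within 2-fold in either direction.

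The alpha subunit of the catalytic head of ATP synthase, Atp5a1, led this comparison. It had signals of 10206, 9536 and 10445 in mutant OMN of 6 weeks, against 6317, 6724 and 6460 in mutant spinal cord of 6 weeks. All 3 OMN arrays lay above all 3 cord arrays, with a log2 fold change of 0.63 ± 0.071 (SE) and an adjusted p of 4.2e-06. Its second tested probe set had a log2 fold change of 0.21 and was not called. Atp5b, the beta subunit that carries the catalytic sites, had 9236, 9024 and 11155 in OMN and 6926, 7269 and 7831 in spinal cord (log2 0.41 ± 0.086, adjusted p = 0.00176). Smaller parts of the enzyme were also called higher, namely Atp5g3 (0.38), Atp5j (0.35), a coupling factor of the stalk, and Atp5d (0.28), the delta subunit of the central stalk.

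In complex I, Ndufa5, a subunit of the peripheral arm, had 2579, 2518 and 2656 in mutant OMN of 6 weeks and 2010, 1841 and 1734 in mutant spinal cord of 6 weeks. Its arrays did not overlap either (log2 0.47 ± 0.11, adjusted p = 0.00443). Ndufv1, the NADH-binding subunit, was higher by 0.29 at 1 of its 3 tested probe sets. Ndufb8, a subunit of the membrane arm, was the only member called lower: it had 3403, 4062 and 4296 in OMN and 5315, 5303 and 5803 in spinal cord (log2 -0.48 ± 0.15, adjusted p = 0.0239). In complex II, 1 of 2 probe sets of Sdha, the flavoprotein that oxidises succinate, was higher by 0.23. Uqcrb, a small ubiquinone-binding subunit of complex III, was higher by 0.42 ± 0.093 at its brighter probe set, while the other had -0.02. The calls in complex IV were a dim probe set of Cox5b (0.95 ± 0.21), Cox6c (0.34), Cox7a2 (0.28) and Cox7a2l (0.21). The Cox5b probe set had 254, 311 and 256 in OMN against 99.8, 163 and 130 in spinal cord, and the 4 other tested probe sets of Cox5b were not called. With any 1 of the 6 arrays left out, Atp5a1, Atp5b, Atp5g3, Ndufa5, Uqcrb, Cox5b and Cox6c were still called. Ndufb8 was called in 4 of these 6 fits, lost without mutant OMN replicate 1 or mutant spinal cord replicate 3, Ndufv1 in none, and Atp5d, Atp5j, Cox7a2, Cox7a2l and Sdha in 1 or 2 of them.

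**Figure D1:**
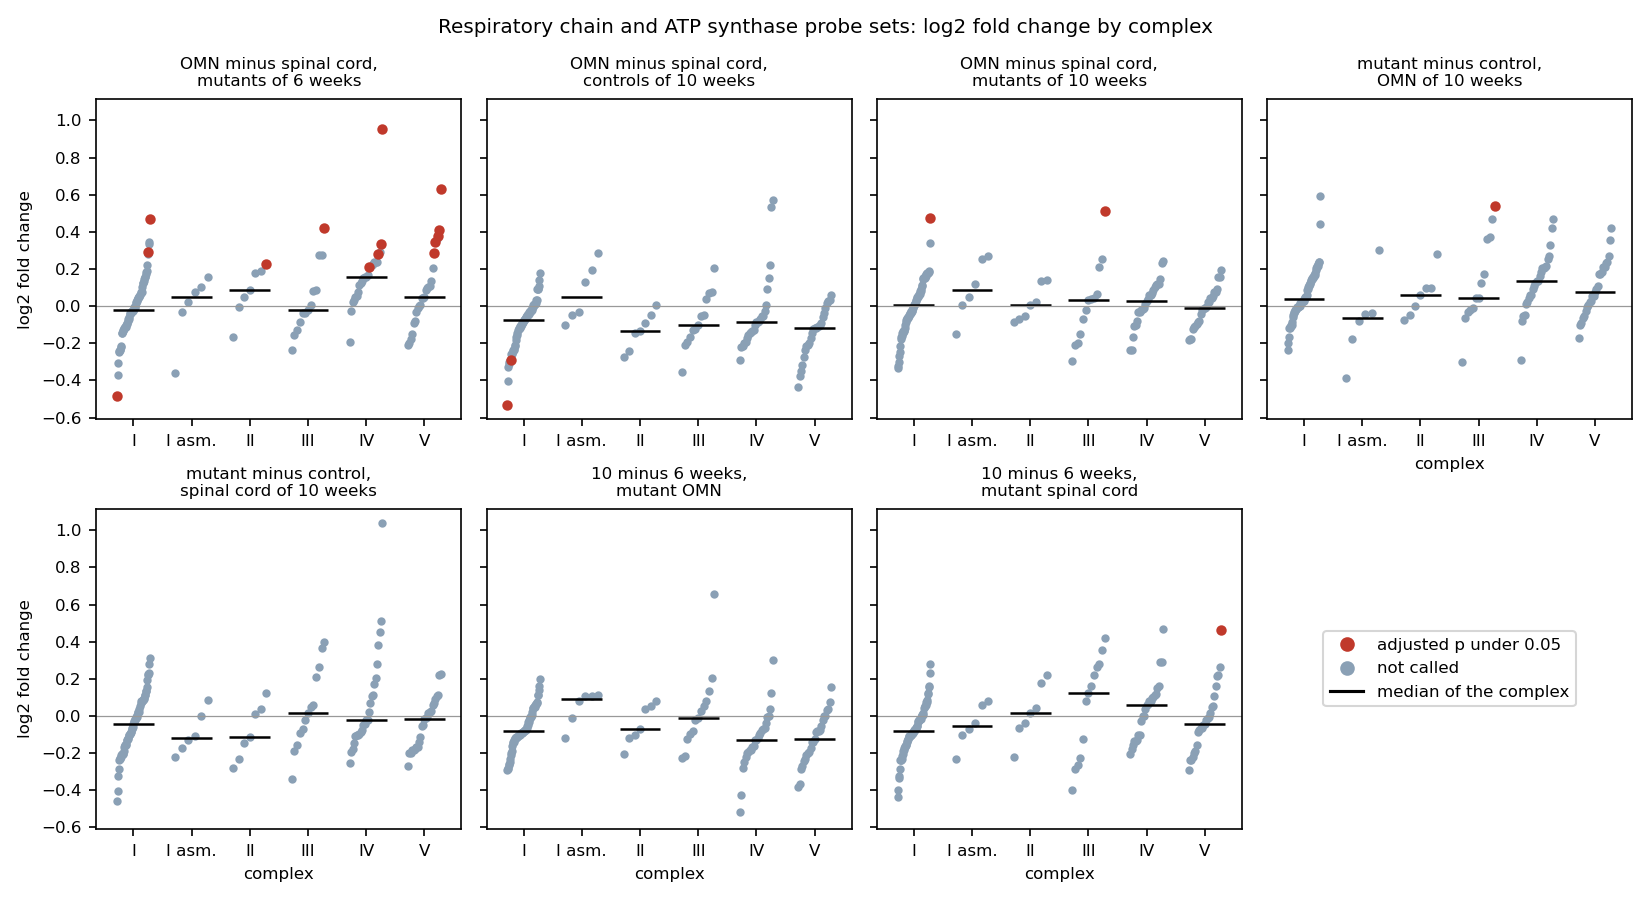
Each point is 1 tested probe set, placed by complex (I asm., complex I assembly) with its log2 fold change on the vertical axis, and each panel is 1 comparison. Red points passed an adjusted p of 0.05 and black lines are medians of a complex: most points lie within 0.4 of 0 in every panel, and red points are most frequent in mutants of 6 weeks.

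Between regions in controls of 10 weeks, 2 of 141 members were called, both lower in OMN, which is 1.42% of the members against 13.6% of all probe sets (6.62% higher and 6.94% lower). Ndufs8, an iron-sulfur subunit of complex I, had 2303, 2395 and 2200 in control OMN and 3753 and 2956 in control spinal cord at the probe set called (log2 -0.53 ± 0.16, adjusted p = 0.0311). Ndufa9, a subunit at the junction of both arms of complex I, had 2296, 2394 and 2222 in OMN and 3010 and 2640 in spinal cord (log2 -0.29 ± 0.091, adjusted p = 0.0408). For both genes the groups did not overlap, but each was called only in the fit without control spinal cord replicate 3 among the 5 that left out an array, with changes from -0.70 to -0.36 for Ndufs8 and from -0.38 to -0.19 for Ndufa9. Next by p were Ndufa3 (-0.33), Atp5c1 (-0.27) and Atp5mpl (-0.32), which were not called. The arrays did not overlap for 46 members (32.6%, against 46.0% of all probe sets), 5 higher and 41 lower in OMN. This split has no counterpart over all probe sets, where directions were not counted. Of the 141 log2 fold changes 109 were below 0, with a median of -0.09 over the members (-0.14 to -0.054 with 1 array left out) and 0.01 over all probe sets. By complex the medians were -0.08 in complex I, -0.13 in complex II, -0.10 in complex III, -0.09 in complex IV and -0.12 in complex V. In quantile-normalized values they were -0.07, -0.09, -0.06, -0.02 and -0.09 in this order, and -0.06 over the members.

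Between regions in mutants of 10 weeks, 2 of 141 members were called, both higher in OMN, again 1.42% and here against 19.3% of all probe sets (9.30% higher and 9.99% lower). The arrays did not overlap for 17 members (12.1%, against 36.0% of all probe sets). Uqcrb had 1463, 1680 and 1451 in mutant OMN of 10 weeks and 898, 1138 and 1177 in mutant spinal cord of 10 weeks at its dimmer probe set (log2 0.51 ± 0.11, adjusted p = 0.00395). Ndufa5 had 1608, 1924 and 1703 in OMN and 1047, 1214 and 1515 in spinal cord (log2 0.48 ± 0.14, adjusted p = 0.0196) at the probe set that was not called at 6 weeks. The Ndufa5 call was lost without mutant OMN replicate 2 or without mutant spinal cord replicate 1 or 2, with adjusted p-values of up to 0.11. Not called were Ndufb2 (-0.33, adjusted p = 0.051), a small membrane-arm subunit, and the assembly factors Ndufaf3 (0.26) and Ndufaf4 (0.27). For Uqcrfs1 the log2 fold change was 0.25 (adjusted p = 0.179) and for Atp5g3 it was 0.15 (adjusted p = 0.242).

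Averaged over the 3 conditions, which gives the region comparison its smallest standard errors, 13 of 141 members were called, 6 higher and 7 lower in OMN. This is 9.22% of the members against 37.7% of all probe sets (20.0% higher and 17.7% lower). Higher were Cox5b at its dim probe set (0.49), Ndufa5 (0.25), Uqcrb (0.23), Atp5a1 (0.20), Atp5g3 (0.19) and Ndufaf3 (0.18), an assembly factor of complex I. Lower were 3 of 6 probe sets of Ndufs8 (-0.31, -0.25 and -0.23), Atp5e (-0.27), the epsilon subunit of ATP synthase, Ndufb8 (-0.27), Ndufb2 (-0.26) and Atp5mpl (-0.19), a small protein associated with the enzyme. The other 3 tested Ndufs8 probe sets lay between -0.16 and 0.06 and were not called. Over the 17 fits that each left out 1 array, Atp5e was called in 11, Ndufb8 in 15 and the 3 Ndufs8 probe sets in 17, 12 and 9, and the other calls held in all of them. Complex I, with 65 of the 141 tested probe sets, held 5 of the 7 lower calls, 3 of them of Ndufs8, and 1 of the 6 higher ones. The median change was -0.01 over the members (-0.032 to 0.015 with 1 array left out, above 0 without mutant OMN replicate 1 of 6 weeks) and 0.02 over all probe sets.

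**Figure D2:**
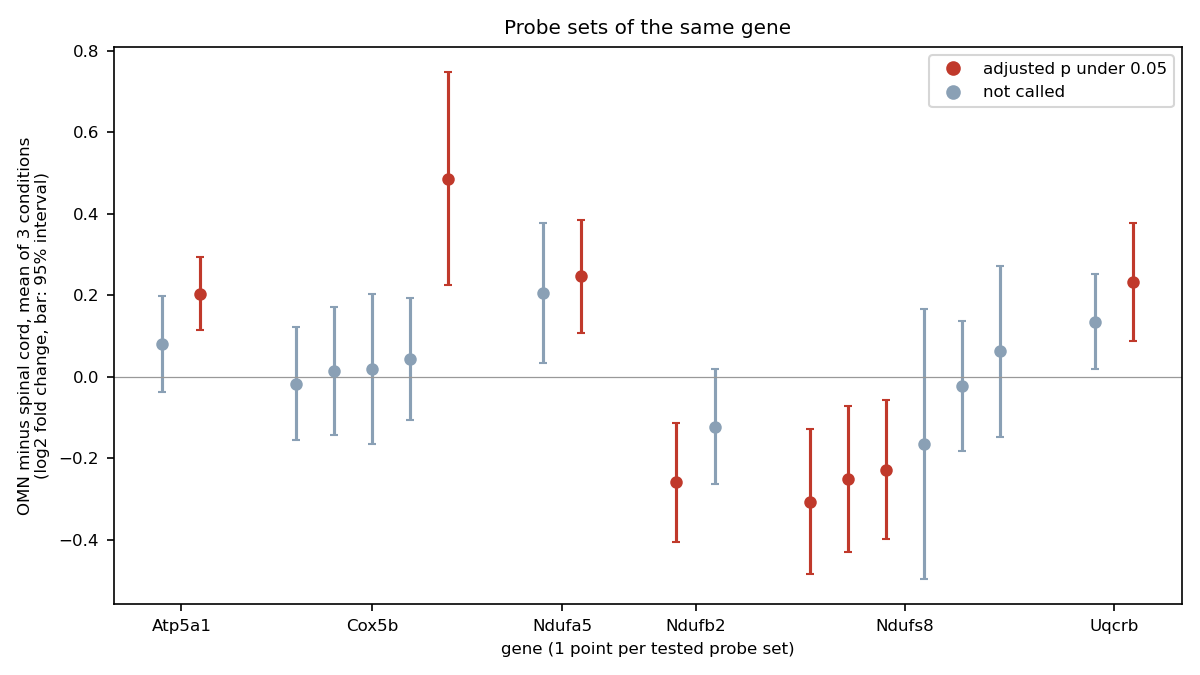
Points are tested probe sets of 6 genes, grouped by gene, with the log2 fold change of OMN over spinal cord averaged over 3 conditions and its 95% interval. Red points passed an adjusted p of 0.05: in each gene some but not all probe sets did, as for Ndufs8 with 3 of 6.

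Where a gene had several probe sets, a call rested on some of them. Probe sets of 1 gene share its transcript and are not independent, and those of the x_at kind, as the called one of Ndufs8 in controls, can also bind similar transcripts. Of the 41 genes with more than 1 tested probe set, 10 had a call in mutants of 6 weeks, 1 in controls, 2 in mutants of 10 weeks and 6 in the mean over conditions. In none of these did every probe set of the gene pass. For Ndufs8 in controls the 6 probe sets ran from -0.53 to 0.18, and for Ndufv1 in mutants of 6 weeks the 3 ran from -0.11 to 0.29. The Ndufa5 probe sets both lay above 0 in the mean over conditions, at 0.21 and 0.25, as did both of Uqcrb, at 0.14 and 0.23.

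**Figure D3:**
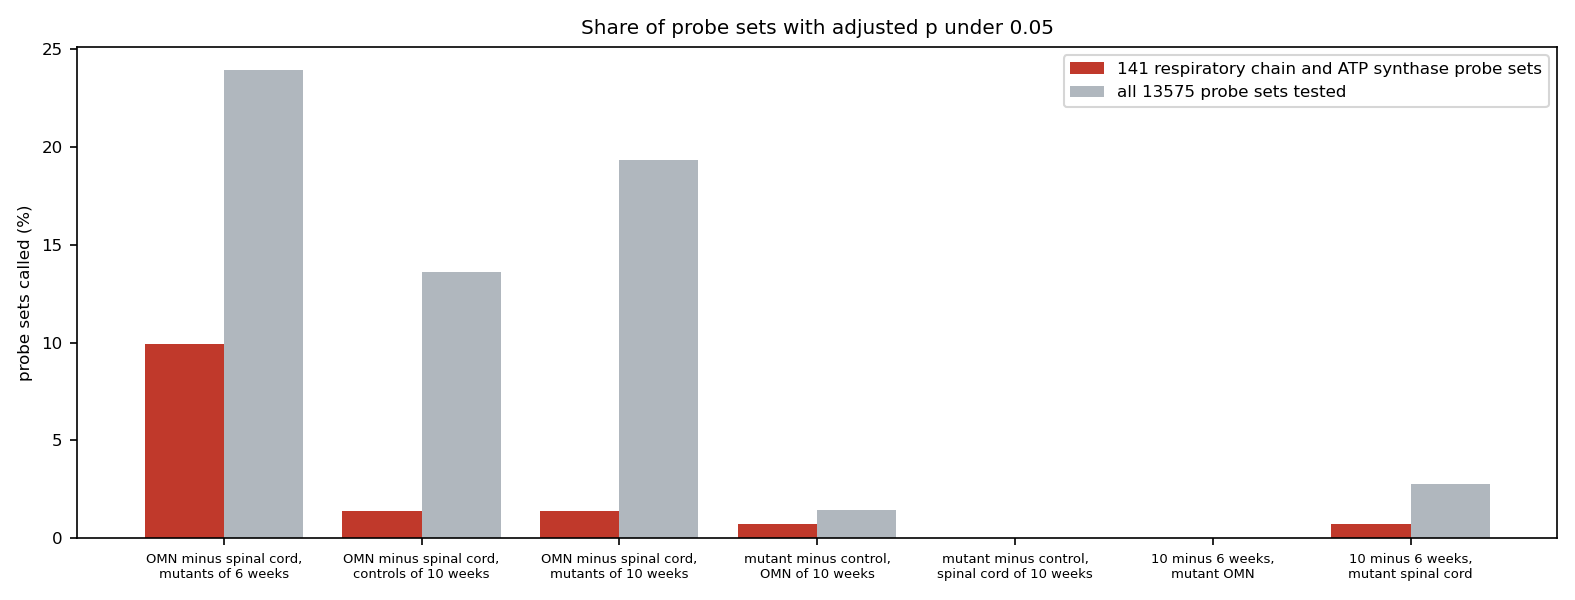
Bars give the percentage of probe sets with an adjusted p under 0.05 in 7 comparisons, the members in red and all tested probe sets in grey. In the 3 comparisons of regions the member bars stand at 9.93%, 1.42% and 1.42%, and the grey bars at 23.9%, 13.6% and 19.3%.

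Several marker lists moved with the region. Over all probe sets, 12.2% were higher and 11.7% lower in OMN in mutants of 6 weeks. These shares were 6.62% and 6.94% in controls, and 9.30% and 9.99% in mutants of 10 weeks. Of 11 tested oligodendrocyte genes 7 were lower in OMN in mutants of 6 weeks, 11 in controls and 9 in mutants of 10 weeks, and of 10 genes of meninges and fibroblasts 10, 9 and 10 were lower. In the same order 6, 4 and 5 of 11 astrocyte genes were lower, with 1 higher in each condition, and 6, 4 and 6 of 9 microglia genes were lower. Of 16 neuron genes 8 were higher and 1 was lower in mutants of 6 weeks, 4 and 2 in controls, and 5 and 2 in mutants of 10 weeks. The summed signal of the neuron genes was 78693 to 79279 in mutant OMN of 6 weeks against 67780 to 72282 in mutant spinal cord of 6 weeks. In the other conditions it overlapped, with 73567 to 78038 in control OMN and 74796 to 79877 in control spinal cord, and 75924 to 79540 in mutant OMN of 10 weeks and 74325 to 82329 in mutant spinal cord of 10 weeks. The part of these lists in the member results was not tested.

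In OMN at 10 weeks, 1 of 141 members was called between mutants and controls (0.709%, against 1.47% of all probe sets, of which 1.04% were higher and 0.435% lower). It was Uqcrfs1, the Rieske iron-sulfur protein that carries electrons from ubiquinol to cytochrome c1 in complex III. Uqcrfs1 had 2432, 2716 and 2292 in mutant OMN of 10 weeks, against 1732, 1622 and 1732 in control OMN of 10 weeks. The lowest mutant lay above the highest control, with a log2 fold change of 0.54 ± 0.13 (SE), a 95% interval of 0.27 to 0.81 and an adjusted p of 0.0425. This call was close to its threshold: with each of the 6 arrays left out in turn the change stayed between 0.47 and 0.59 but the adjusted p ran from 0.0666 to 0.15. Pituitary hormone genes summed to between 604 and 23689 in mutant OMN of 10 weeks and between 1011 and 6513 in control OMN, and leaving out the highest array of each, mutant replicate 2 and control replicate 3, gave 0.49 with an adjusted p of 0.253. In quantile-normalized values it was 0.54 with an adjusted p of 0.0344. The summed signal of the oligodendrocyte genes was 48572 to 53905 in mutant OMN of 10 weeks and 39273 to 42923 in control OMN, with 1 of 11 genes called higher, and its part was not tested.

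In the other groups Uqcrfs1 had 2074, 2523 and 2747 in mutant OMN of 6 weeks, 1986, 2196 and 2039 in mutant spinal cord of 10 weeks, 2421, 2825 and 2261 in mutant spinal cord of 6 weeks and 1803 and 2620 in control spinal cord. The 3 control OMN arrays were therefore the lowest of all 17, and the lower of the 2 control spinal cord arrays lay below every mutant array. Between regions its log2 fold change was -0.03 in mutants of 6 weeks (adjusted p = 0.874) and -0.35 in controls (adjusted p = 0.113), neither of them called. The value in controls rested on single spinal cord arrays: it was -0.62 without control spinal cord replicate 2 (adjusted p = 0.0206, called) and -0.088 without replicate 3 (adjusted p = 0.785).

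Atp5g3, which encodes 1 of the precursors of the c subunit ring, came next. It had 11057, 12287 and 10862 in mutant OMN of 10 weeks and 8544, 9016 and 9116 in control OMN of 10 weeks, so that the arrays did not overlap. Its log2 fold change was 0.36 ± 0.089 with an adjusted p of 0.0517, which missed the threshold, and after quantile normalization it was 0.07 with an adjusted p of 0.674. After these came Uqcrb (0.36), Cox6a1 (0.33) and Sdha (0.28), with adjusted p-values from 0.0585 to 0.0786, and in quantile-normalized values Uqcrb was at -0.05 and Cox6a1 at 0.05. Over all 141 members 34 had every mutant array above every control array and 3 the reverse, together 26.2%, compared with 24.0% of all probe sets. Directions were not counted over all probe sets, so the split of the members has no counterpart. The median change was 0.06 over the members and -0.01 over all probe sets, and after quantile normalization the member median was 0.00. Without mutant OMN replicate 2 it was 0.00055, and without mutant OMN replicate 1 it was 0.11. By complex it was 0.04 in complex I, 0.06 in complex II, 0.04 in complex III, 0.13 in complex IV and 0.07 in complex V, and after quantile normalization it was 0.03 in complex IV and 0.01 in complex V.

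**Figure D4:**
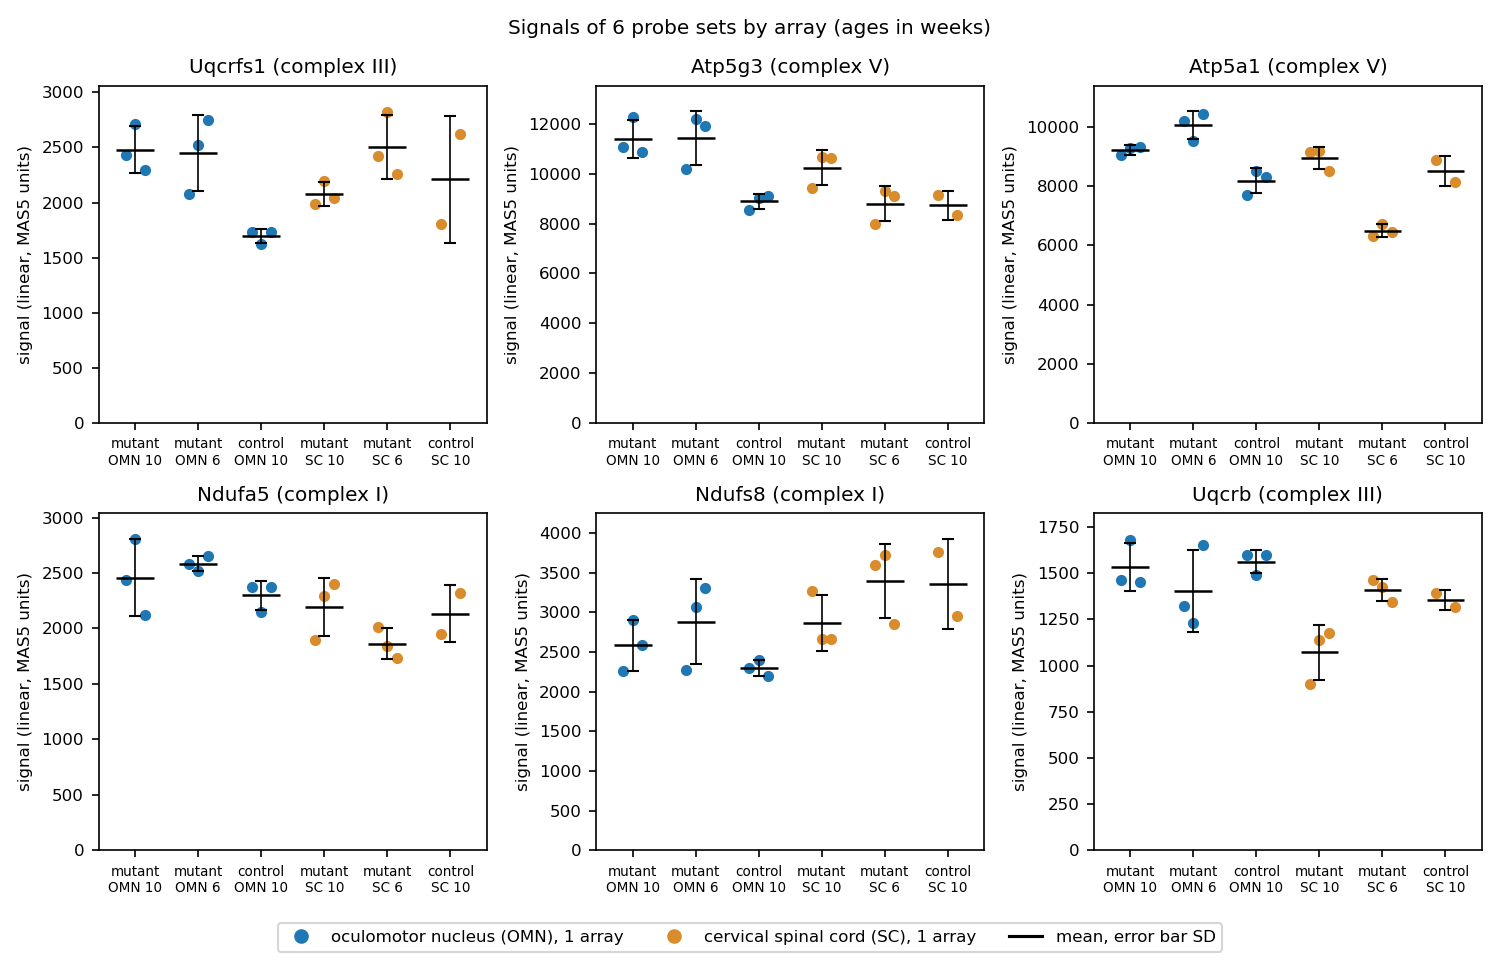
Linear signals of 6 probe sets are plotted for each array in the 6 groups, OMN in blue and spinal cord (SC) in orange, with the mean (line) and SD (bar). Control OMN holds the lowest Uqcrfs1 values, 1622 to 1732, and mutant spinal cord of 6 weeks the lowest Atp5a1 values, 6317 to 6724.

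In spinal cord at 10 weeks no member was called between mutants and controls, against 0.0221% of all probe sets (0.0147% higher and 0.00737% lower) in limma. An unadjusted p under 0.05 was held by 9 of 141 members and by 1595 of 13575 probe sets. The arrays did not overlap for 39 members (27.7%, against 27.5% of all probe sets). The smallest p belonged to the dim Cox5b probe set, which had 185, 175 and 203 in mutant spinal cord of 10 weeks and 108 and 55.2 in control spinal cord (log2 1.04 ± 0.23, adjusted p = 0.103). Cox8c (0.45), known from human testis, Uqcrb (-0.34), Atp5d (-0.27) and Uqcrc2 (0.40), a core protein of complex III, followed with adjusted p-values from 0.262 to 0.328. For Uqcrfs1 the log2 fold change was -0.07 (adjusted p = 0.894) and for Atp5g3 it was 0.23 (adjusted p = 0.38). A difference of the genotype effect between regions was called for no member (0 of 141 in limma, and 0 of 13575 over all probe sets), with 4 members and 835 probe sets at an unadjusted p under 0.05. For Uqcrfs1 the difference of both genotype effects was 0.61 ± 0.19 with an adjusted p of 0.734, and it was 0.87 without control spinal cord replicate 2 and 0.34 without replicate 3.

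With age, 1 member was called. Atp5a1 had 9160, 9182 and 8525 in mutant spinal cord of 10 weeks, against 6317, 6724 and 6460 in mutant spinal cord of 6 weeks. This was a log2 fold change of 0.46 ± 0.071 with an adjusted p of 0.00469, and 0.709% of the members against 2.76% of all probe sets were called (1.78% higher and 0.972% lower). The call held in each fit that left out 1 of the 6 arrays and in 9 of 9 other alternatives without the array that stands apart, quantile normalization among them (0.37, adjusted p = 0.0129). Mutant spinal cord of 6 weeks stood apart from all other groups at this probe set, since the remaining 14 arrays had 7710 to 10445. The other tested Atp5a1 probe set had 4503, 4861 and 4597 at 10 weeks and 4186, 4828 and 3971 at 6 weeks, and its log2 fold change of 0.11 was not called. The arrays of both ages did not overlap for 32 members (22.7%, against 23.6% of all probe sets). Next by p were Uqcrb (-0.40, adjusted p = 0.0687), Ndufa13 (-0.40), Ndufv2 (-0.44) and Atp5b (0.27), none of them called. Between these groups 4 of 10 tested genes of meninges and fibroblasts were lower at 10 weeks (against 0.972% of all probe sets), with a summed signal of 7020 to 9525 against 11568 to 12890 at 6 weeks. The neuron genes summed to 74325 to 82329 at 10 weeks against 67780 to 72282 at 6 weeks, and the part of either list was not tested.

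In mutant OMN no member was called between 10 and 6 weeks, against 0.0221% of all probe sets in limma, and 15 members had an unadjusted p under 0.05. The smallest p was that of Uqcr10, a small subunit of complex III, at 0.66 (adjusted p = 0.296), ahead of Cox7a2 (-0.28), Atp5d (-0.23), Atp5mpl (-0.29) and Atp5k (-0.37), subunit e of ATP synthase. The arrays did not overlap for 13 members (9.22%, against 14.2% of all probe sets). Of the 141 members 104 had a log2 fold change below 0, with a median of -0.08 (-0.05 after quantile normalization) against 0.00 over all probe sets. The member median was -0.029 without mutant OMN replicate 3 of 6 weeks, -0.036 without mutant OMN replicate 1 of 10 weeks and -0.16 without mutant OMN replicate 1 of 6 weeks. The oligodendrocyte genes, none of 11 called, summed to 48572 to 53905 in mutant OMN of 10 weeks against 65252 to 66958 in mutant OMN of 6 weeks, with a median log2 fold change of -0.38, and their part was not tested. The adjusted p was 0.974 for Uqcrfs1 (0.02) and 0.997 for Atp5g3. The age effect differed between regions for 1 member, Atp5a1, at -0.58 ± 0.10 (OMN change minus spinal cord change, adjusted p = 0.0358), which is 0.709% of the members against 0.368% of all probe sets (0.140% higher and 0.228% lower). This was the brighter Atp5a1 probe set, and the other tested one had -0.13 and was not called. After the brighter probe set came Cox5b (-0.99, adjusted p = 0.129), Uqcrb (0.53), Cox7a2 (-0.39) and the second Uqcrb probe set (-0.38), which were not called.

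Shifts shared by a whole array moved with these comparisons. The 99th percentile of signal was 6610 to 7136 on mutant OMN arrays of 10 weeks, 6608 to 7484 on mutant OMN arrays of 6 weeks, 6101 to 6235 on control OMN arrays and 6146 to 6796 on spinal cord arrays. The median of the members on an array, as a log2 difference from the mean of 17 arrays, lay between -0.06 and 0.11 in mutant OMN of 10 weeks, between -0.08 and 0.19 in mutant OMN of 6 weeks and between -0.15 and -0.04 in control OMN. After quantile normalization these ranges were -0.06 to 0.06, -0.07 to 0.12 and -0.10 to -0.01. The replicates of mutant OMN of 6 weeks spread most: replicate 1 was below 0 in all 5 complexes and replicates 2 and 3 were above it, in values as deposited. Above a mean signal of 8000, a limit chosen after the values were seen, there were 10 members and 125 other probe sets. Their median changes between regions in mutants of 6 weeks were both 0.29, and between mutant and control OMN they were 0.25 for the members and 0.30 for the others. Between regions in controls they were -0.11 for the members and -0.14 for the others. Between ages in mutant OMN they were -0.12 for the members and -0.11 for the others. Between ages in mutant spinal cord they were 0.16 for the members and 0.18 for the others. For the difference of the age effect between regions they were -0.26 for the members and -0.28 for the others. Quantile normalization gave medians of 0.05, -0.04, 0.03, -0.03, 0.00 and -0.02 for the 10 members in these comparisons, in this order. In quantile-normalized values 8 members (5.67%, against 22.0% of all probe sets) were called between regions in mutants of 6 weeks, 6 higher and 2 lower, and Atp5b, Uqcrb, Cox6c and Atp5g3 no longer passed, while Atp5a1 (0.43), Ndufa5 (0.50) and Cox5b (0.90) did. In the same values 4 members were called in controls (2.84%, against 13.5%), 4 in mutants of 10 weeks (2.84%, against 20.1%) and 22 in the mean over conditions (15.6%, against 38.0%). For genotype they were 1 in OMN (0.709%, against 1.11%) and none in spinal cord (against 0.0147%), and for age none in OMN (against 0.103%), 2 in spinal cord (1.42%, against 2.25%) and none for the difference between regions (against 0.0958%).

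**Figure D5:**
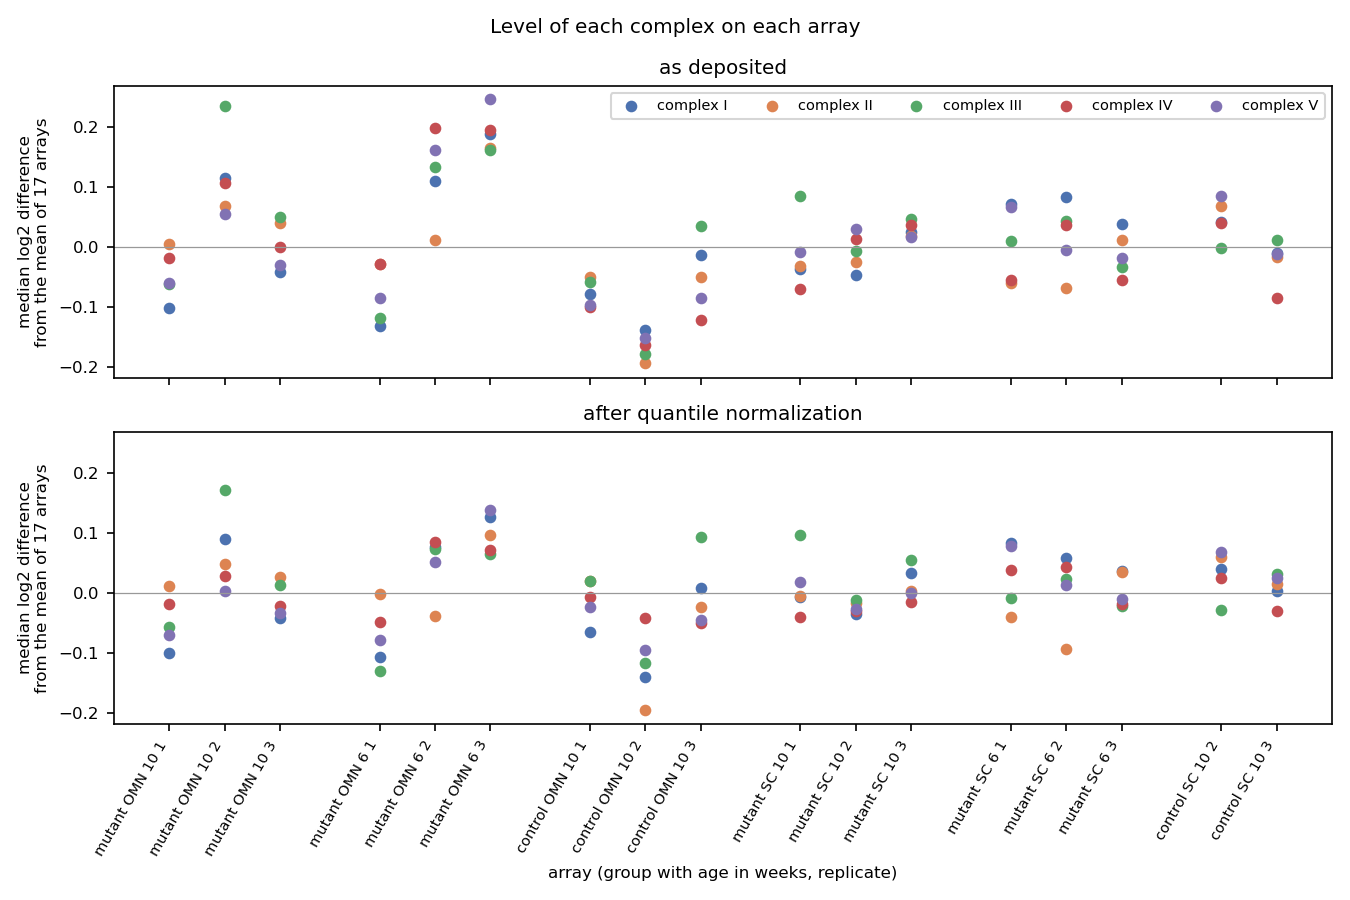
The vertical axis is the median log2 difference of a complex from its mean over 17 arrays, with 1 column of points for each array and 1 colour for each complex, as deposited (upper panel) and after quantile normalization (lower panel). As deposited, all 5 complexes lie below 0 on control OMN replicates 1 and 2 and on mutant OMN replicate 1 of 6 weeks and above 0 on replicates 2 and 3 of that group, while on several spinal cord arrays complexes lie on both sides of 0.

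The other genes of energy metabolism were read from lists. Bright probe sets as such were often higher in OMN than in spinal cord in mutants of 6 weeks. Of 125 probe sets outside the members with a mean signal above 8000, 67 were called higher there and 1 lower, with a median of 0.29. Between mutant and control OMN 21 of them were called higher and 0 lower. The part of this shift in the list results was not tested. Of 13 tested glycolysis genes 7 were higher in OMN than in spinal cord in mutants of 6 weeks and none was lower, where 12.2% of all probe sets were higher and 11.7% lower, among them Tpi1 (0.56), Pgk1 (0.51), Aldoa (0.46) and Pgam1 (0.31), all enzymes between hexose phosphate and pyruvate. In controls, with 6.62% of all probe sets higher, Ldha, lactate dehydrogenase A, was the only glycolysis gene called (0.60), and in mutants of 10 weeks, with 9.30% higher, it was Pgam1 (0.26). Of 9 carriers and porins of the mitochondrial membranes 5 were higher in mutants of 6 weeks, including Slc25a4 (0.31), an ATP and ADP exchanger, and Vdac1 (0.28), an outer membrane channel. Slc25a22, a glutamate carrier, was higher in OMN in each condition, by 0.54 in mutants of 6 weeks, 0.75 in controls and 0.66 in mutants of 10 weeks. Of 16 genes of the citric acid cycle and pyruvate dehydrogenase 1 was higher in mutants of 6 weeks, Mdh2 (0.26), and 1 in mutants of 10 weeks, Fh1 (0.32). Of 74 mitochondrial ribosomal proteins 7 were higher in mutants of 6 weeks (against 12.2% of all probe sets) and 4 were lower in mutants of 10 weeks (against 9.99% of all probe sets), both below the share over all probe sets.

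Of 22 further assembly factors and electron carriers 1 was higher in OMN in mutants of 6 weeks, where 12.2% of all probe sets were higher. It was Sco2, a copper chaperone of complex IV (0.53). Lrpprc, which stabilises mitochondrial mRNAs, was the only one higher in controls (0.33) and in mutants of 10 weeks (0.37). Of all probe sets 6.62% and 9.30% were higher there. Etfb, a subunit of an electron transfer flavoprotein, was the only one lower in mutants of 10 weeks (-0.36), against 9.99% of all probe sets. Of 15 regulators of mitochondrial genes 1 was called between regions within a condition, Ppargc1a, a coactivator of mitochondrial biogenesis, which was higher in mutant OMN of 10 weeks than in mutant spinal cord of 10 weeks (0.67 ± 0.16, adjusted p = 0.00538). In that comparison 9.30% of all probe sets were higher. None of 13 import and chaperone genes was called in the 3 region comparisons. Between mutant and control OMN, with 1.04% of all probe sets higher, Aldoc, an aldolase of brain, was higher (0.43) and so was Slc25a5, a further ATP and ADP exchanger (0.30). The 1 core subunit of mitochondrial DNA that was measured, ND5 of complex I, was higher in OMN in mutants of 6 weeks (0.54 ± 0.15, adjusted p = 0.016), and its changes of -0.29 in controls and -0.07 in mutants of 10 weeks did not pass. ND5 is itself bright, with 16842 to 20848 in mutant OMN of 6 weeks and 11500 to 14906 in mutant spinal cord of 6 weeks. The part of the shift of bright probe sets in its change was not tested.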

How the data were processed

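Biotinylated cRNA was hybridised to 430A mouse arrays of Affymetrix, per the labels. The deposited values are linear signal intensities that the authors computed with Microarray Suite 5.0, per the series' design text, in a table with 1 column per sample. Gene symbols are those of the platform annotation, with 1 symbol for 20380 probe sets, several for 691 and none for 1555; the RefSeq gene table (GRCm38.p6) was used for names only. Median array signals ran from 207 to 226 and precision is limited by the number of arrays.

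After removal of 64 control probe sets, 25 was added to each signal, log2 was taken without further normalization, and the lowest 40% by mean were left out (limit 7.38). A mean per group was fitted over 17 arrays in R 4.3.3 by limma 3.58.1, using contrasts and eBayes with a trend (11 residual degrees of freedom). P-values were adjusted by Benjamini-Hochberg over all 13575 probe sets within each of 10 contrasts, and an adjusted p under 0.05 is called. Fold changes are on the log2(signal + 25) scale and understate those of dim probe sets. The steps were tested on simulated data. In list results each gene stands by its brightest probe set. Named members are Uqcrfs1 and Atp5g3 throughout, the 8 largest called changes per direction (or the 5 smallest p), the brightest and dimmest of each complex, the isoform sets, genes whose probe sets differ in call, and up to 4 genes per list. The members, lists and rules were chosen with earlier results of these data known. Alternatives were quantile normalization, median centring, an offset of 100, other filters, no trend, fewer or all 18 arrays, a replicate block and 1 probe set per gene.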

Additional observations from a re-analysis of the deposited data

Results flagged for a closer look

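The change with age in mutants differed between regions at 1 of 2 tested probe sets of Atp5a1, the alpha subunit of ATP synthase. At its brighter probe set the change of 10 over 6 weeks in OMN minus that in spinal cord was -0.58 (SE 0.10, adjusted p = 0.0358 for the difference itself, in limma). Spinal cord rose by 0.46 while OMN had 9043, 9304 and 9328 at 10 weeks and 10206, 9536 and 10445 at 6 weeks. The difference passed in 4 of 10 alternatives without the control spinal cord array that stands apart and in 4 of 12 fits without 1 array, with values from -0.62 to -0.41, and after quantile normalization it was -0.41 with an adjusted p of 0.0841. It was lost without mutant OMN replicate 2 of 6 weeks, mutant OMN replicate 1 or 3 of 10 weeks, mutant spinal cord replicate 1 or 3 of 6 weeks, or any of the 3 mutant spinal cord arrays of 10 weeks. At the other tested Atp5a1 probe set the same difference was -0.13 and was not called. The 125 probe sets outside the members with a mean signal above 8000 had a median of -0.28 for the same difference between regions. The part of this shift in the Atp5a1 value was not tested. The cause was not tested.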

How the results depend on the processing

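Calls of members were counted under each alternative and the cause of a change in count was not tested. Among the alternatives, the share of all probe sets called is given above for quantile normalization alone. For the others these counts cannot tell a change in the members from a change over the whole array. Leaving out 1 array gave 7 to 19 calls between regions in mutants of 6 weeks (14 with all arrays), 0 to 4 in controls (2), 1 to 4 in mutants of 10 weeks (2) and 10 to 18 in their mean (13). It gave 0 for genotype in OMN (1) with any array left out, 1 for age in spinal cord (1) and 0 to 2 for age by region (1). Quantile normalization gave 8, 4, 4 and 22 calls between regions, in the same order, 2 for age in spinal cord and 0 for age by region. Between regions in mutants of 6 weeks, 9 members were called with median centring, without a trend, with the arrays of the contrast alone and with 1 probe set per gene. In controls 1 member was called, lower in OMN, with no filter, without a trend and with 1 probe set per gene. Without both arrays with high pituitary signals 1 other member was called there, higher in OMN, and neither Ndufs8 nor Ndufa9 passed. In mutants of 10 weeks there were 4 with no filter or with 60% left out and 1 with 1 probe set per gene. For genotype in OMN there were 0 with median centring, no filter, no trend, without the pituitary arrays or with 1 probe set per gene, 2 with the larger offset or 60% left out and 7 with the arrays of the contrast alone. Age in spinal cord had 3 with median centring, and age by region had 0 with median centring, no filter, no trend, the arrays of the contrast alone or without the pituitary arrays. With all 18 arrays 0 members were called in any contrast.

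Whether equal replicate numbers mark paired samples is not known. Same-numbered arrays of different groups correlated in their deviations from group means at -0.102 to 0.13 over 40 pairs, with a median of 0.022. Differently numbered arrays did so at -0.156 to 0.156 over 80 pairs, with a median of -0.019. Deviations from means of so few arrays cannot decide whether samples were paired. With the replicate block 15 members were called between regions in mutants of 6 weeks, 1 in controls, 4 for genotype in OMN and 2 for age in spinal cord.

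Some values that were not called changed sign. With all 18 arrays Uqcrfs1 was 1.34 between regions in controls (-0.35 with 17 arrays), 0.52 in the mean over conditions, 1.62 for genotype in spinal cord and -1.08 for genotype by region (0.61 with 17 arrays), and Atp5g3 was -1.04 for genotype by region. Quantile normalization gave Atp5g3 -0.051 for genotype by region and 0.083 for age in OMN, where median centring gave 0.0090. Without the pituitary arrays Uqcrfs1 was -0.042 for age in OMN. With single arrays left out, Uqcrfs1 ran from -0.12 to 0.079 between regions in mutants of 6 weeks, from -0.13 to 0.043 in the mean over conditions, from -0.34 to 0.20 for genotype in spinal cord and from -0.089 to 0.11 for age in OMN. Atp5g3 ran from -0.041 to 0.093 between regions in controls and from -0.083 to 0.047 for age in OMN.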
